A study of Mus musculus with 12 samples.

Results

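The 8 genes described here are regulators of the making of fat from carbohydrate and targets of these regulators. Their selection used the liver difference between Mettl5 KO and WT mice, which singled out the strongly responding targets Thrsp and Pnpla3. They are rows of a count table of 55487 genes, found by symbol, and all 8 were present. Total RNA-seq covered both organs of 6 mice, with 3 libraries in each of 4 groups, WT liver and WT brain (mice B, D and E) and KO liver and KO brain (mice A, C and F). METTL5 is a methyltransferase of 18S rRNA. KO mice carried a whole-body deletion of exon 2 of Mettl5, made by crossing the floxed allele, from C57bl/6 and 129S6 hybrid cells backcrossed to B6, with a CMV-cre line. The controls are labelled WT, although the study describes the mice of this RNA-seq as 3 pairs of KO and heterozygous animals, and the labels do not give the pairs. They also give no age, feeding state, litter or collection time.

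Making of new fatty acids in the liver is driven by the transcription factors SREBP-1c, ChREBP and LXR alpha. SREBP-1c, from Srebf1, is held in the endoplasmic reticulum by INSIG proteins and is released and induced by insulin. ChREBP, from Mlxipl, answers to sugar metabolites, and LXR alpha, from Nr1h3, answers to oxysterols and raises Srebf1 transcription. Among their targets, Thrsp (Spot 14) and its paralogue Mid1ip1 act on acetyl-CoA carboxylase, Pnpla3 is a lipase of lipid droplets and Txnip binds thioredoxin and restrains glucose uptake. The counts are summed over each gene, so the SREBP-1a and SREBP-1c transcripts, and the alpha and beta forms of ChREBP, are not separated.

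Each liver library held 16145754 to 21623180 counts and each brain library 14403309 to 18365114. Mettl5 was at 8.13 to 14.9 CPM (counts scaled to a TMM-adjusted library size) in WT liver against 3.64 to 4.07 in KO liver, and at 5.02 to 9.09 against 3.33 to 3.96 in brain. Libraries of mouse E (WT) and mouse F (KO) held at most 20 counts of the Y-linked genes, whereas those of the other 4 mice held at least 2112. Mitochondrial rRNA took 10.7% to 16.9% of the counts in WT liver and 7.36% to 8.66% in KO liver, and 7.63% to 17.7% in WT brain against 21.4% to 31.6% in KO brain. Hepatocyte markers summed to 61830 to 79660 CPM in WT liver and 70810 to 76510 in KO liver, all 6 being detected. Neuron markers summed to 1917 to 2397 CPM in WT brain and 2042 to 2135 in KO brain.

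The start-site windows of Thrsp and Pnpla3, the members with the largest liver differences, and of Mid1ip1, the paralogue of Thrsp that differed less, are shown to set the 3 sequences side by side. They are RefSeq windows on GRCm38.p6, from 250 bases before to 50 bases after the start, and capitals mark the CCAAT box (CCAAT, or ATTGG on the other strand), the sequence bound by NF-Y.
Thrsp, chr7:97417501-97417800, minus strand: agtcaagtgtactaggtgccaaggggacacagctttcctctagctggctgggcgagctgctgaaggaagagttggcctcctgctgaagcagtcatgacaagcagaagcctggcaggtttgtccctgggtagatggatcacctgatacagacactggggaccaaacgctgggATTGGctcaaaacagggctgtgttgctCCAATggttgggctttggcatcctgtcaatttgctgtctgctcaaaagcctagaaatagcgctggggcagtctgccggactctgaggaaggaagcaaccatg
Pnpla3, chr15:84167566-84167865, plus strand: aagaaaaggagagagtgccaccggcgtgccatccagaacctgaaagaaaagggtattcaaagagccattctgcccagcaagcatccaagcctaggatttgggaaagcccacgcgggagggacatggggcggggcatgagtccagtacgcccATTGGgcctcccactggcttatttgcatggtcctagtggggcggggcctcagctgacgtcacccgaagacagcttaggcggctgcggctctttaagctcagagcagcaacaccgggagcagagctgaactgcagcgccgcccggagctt
Mid1ip1, chrX:10717115-10717414, plus strand: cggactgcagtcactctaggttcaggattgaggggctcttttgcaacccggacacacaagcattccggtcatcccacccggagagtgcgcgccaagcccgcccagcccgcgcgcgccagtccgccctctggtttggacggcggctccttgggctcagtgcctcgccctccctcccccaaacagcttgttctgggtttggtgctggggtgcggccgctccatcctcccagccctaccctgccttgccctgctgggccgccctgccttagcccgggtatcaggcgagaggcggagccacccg
The Thrsp window held the CCAAT box 79 and 52 bases before its start, the Pnpla3 window held it 99 bases before, and the Mid1ip1 window did not hold these letters. It also stood in 2 of the 3 windows of Srebf1, 1 of the 2 of Mlxipl, 1 of the 3 of Insig2 and the window of Txnip, so that 7 of the 14 windows listed for the 8 members held it, members whose liver groups overlapped among them. The box was present in 37.4% of all 32851 RefSeq windows of this length. Both strands were also searched for the E-box CACGTG, the SREBP element TCACNCCAC and the nuclear receptor half-site AGGTCA, which stood in 7.15%, 1.24% and 16.3% of all windows. None of these 3 stood in the windows of Thrsp, Pnpla3 or Mid1ip1. Across the 14 windows, CACGTG stood in 1 of the 2 windows of Mlxipl, 98 bases before the start, and TCACNCCAC in the other, 136 bases before. AGGTCA stood in none of the 14. A match or its absence describes these letters only.

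Thrsp (ENSMUSG00000035686.8, chr7:97412938-97417730 in mm10) was the most abundant member per length in WT liver and was lower in every KO liver. In the WT livers of mice B, D and E it stood at 401, 349 and 466 CPM, and in the KO livers of mice A, C and F at 54.5, 131 and 80.1 CPM. The highest KO library, from mouse C, was thus well under the lowest WT library, from mouse D, and the groups did not overlap. The mean was 405 ± 58.4 CPM in WT and 88.4 ± 38.8 CPM in KO (SD, n = 3 each), a log2 fold change of -2.20 with a standard error (SE) of 0.31, or 4.58-fold. As Thrsp was chosen by this contrast, no test is attached to it.

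Pnpla3 (ENSMUSG00000041653.5, chr15:84167837-84187236) was scarce in liver and scarcer in KO. WT livers B, D and E held 53, 67 and 143 counts, or 2.73, 4.29 and 8.12 CPM. KO livers A, C and F held 14, 2 and 13 counts, or 0.843, 0.112 and 0.678 CPM. The groups did not overlap, and the library of mouse C was under the 3 counts taken as the floor of a single library. The log2 fold change was -3.20 (SE 0.63), a 9.19-fold lower level that likewise carries no test.

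**Figure D1:**
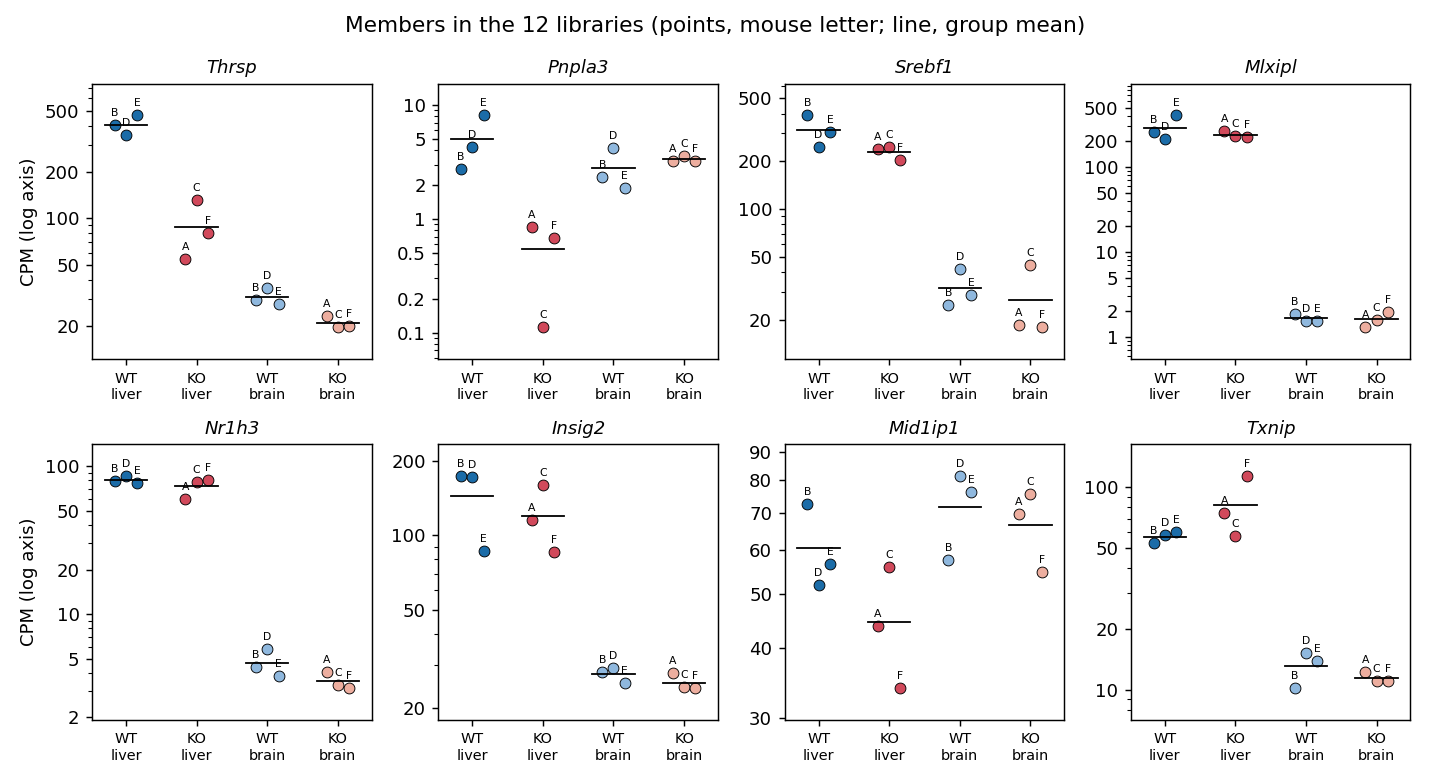
CPM of the 8 members (log axis) in each library, with the mouse letter beside each point and a line at the mean of 3. CPM were scaled within each tissue, so points are to be compared within liver or within brain: the KO livers lie under the WT livers for Thrsp (54.5 to 131 against 349 to 466 CPM) and Pnpla3, and the liver groups overlap for the other 6 members.

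The transcription factors themselves differed less in liver. Srebf1 (ENSMUSG00000020538.15, chr11:60199089-60222581) stood at 390, 245 and 307 CPM in WT livers B, D and E and at 238, 246 and 205 CPM in KO livers A, C and F. Mouse C was level with mouse D, so the groups overlapped, and the log2 fold change was -0.45 (SE 0.18). Mlxipl (ENSMUSG00000005373.13, chr5:135089890-135138382) stood at 258, 211 and 404 CPM in WT livers and at 262, 234 and 227 CPM in KO livers. The WT library of mouse E set the WT mean apart, and the log2 fold change of -0.27 (SE 0.23) became 0.09 among the 4 mice with Y-linked transcripts, from which mice E and F are absent. Nr1h3 (ENSMUSG00000002108.10, chr2:91184061-91202834), which shares chromosome 2 with Mettl5, stood at 79.1, 85.5 and 76.4 CPM in WT livers and at 60.3, 78.5 and 80.4 CPM in KO livers. Its groups overlapped with a log2 fold change of -0.14 (SE 0.15), less than its SE.

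Insig2, the brake that holds SREBP in the endoplasmic reticulum, followed the mice more than the genotype. Insig2 (ENSMUSG00000003721.14, chr1:121304353-121332589) stood at 173, 173 and 86.4 CPM in WT livers B, D and E and at 115, 160 and 85.9 CPM in KO livers A, C and F. The lowest library of each genotype was that of the mouse without Y-linked transcripts, E among WT and F among KO. Its log2 fold change was -0.26 (SE 0.32), and ran from -0.53 without mouse E to -0.07 without mouse F.

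The other targets of these factors moved in opposite directions, each within overlapping groups. Mid1ip1 (ENSMUSG00000008035.12, chrX:10715013-10719690) stood at 72.4, 52.0 and 56.7 CPM in WT livers and at 43.9, 55.9 and 34.0 CPM in KO livers, a log2 fold change of -0.44 (SE 0.20). Only the KO library of mouse C reached into the WT range. Txnip (ENSMUSG00000038393.14, chr3:96557957-96561883) stood at 53.0, 58.1 and 60.3 CPM in WT livers and at 75.1, 57.5 and 113 CPM in KO livers. It was the 1 member of 8 with a higher KO mean, with a log2 fold change of 0.52 (SE 0.23), and mouse F held its highest level. The estimate was 0.22 without mouse F and 0.26 among the 4 mice with Y-linked transcripts.

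Among the 8 members, 7 had a lower and 1 a higher liver estimate, with a median log2 fold change of -0.36 beside -0.00 over all 14075 genes tested, and 2 had groups that did not overlap, both lower, where 6.44% of all genes tested did so. Since the members were chosen by this contrast, nothing is read from these counts. By the edgeR quasi-likelihood test, 0% of the genes tested in liver were called at an adjusted p under 0.1. Adipocyte markers moved with Thrsp and Pnpla3: the 6 markers summed to 3.91 to 11.7 CPM in WT liver and 2.13 to 3.49 CPM in KO liver, and Adipoq, Plin1 and Lep had no count in any KO liver. Lep had at most 3 counts in each WT liver. The part of adipocyte RNA in the liver differences was not tested. With mitochondrial rRNA left out of the counts, the log2 fold change was -2.19 for Thrsp and -3.20 for Pnpla3. In bulk tissue, fewer cells of a type and less RNA per cell cannot be told apart.

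Ratios within a library are again a description of the contrast that chose the genes. The ratios of Thrsp to Mid1ip1 and to Srebf1 did not overlap between the liver groups, whereas those of Txnip to Mlxipl and of Srebf1 to Mlxipl did. Per length, the ratio of Thrsp to its paralogue Mid1ip1 was 6.63 ± 1.30 in WT liver and 1.93 ± 0.622 in KO liver (SD, n = 3), with ratios of 5.38 to 7.98 and 1.21 to 2.29. Against Srebf1 the ratio was 3.40 ± 0.664 in WT liver and 0.988 ± 0.388 in KO liver. In brain, Thrsp lay under Mid1ip1, with a ratio of 0.425 ± 0.0745 in WT and 0.311 ± 0.0523 in KO.

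**Figure D2:**
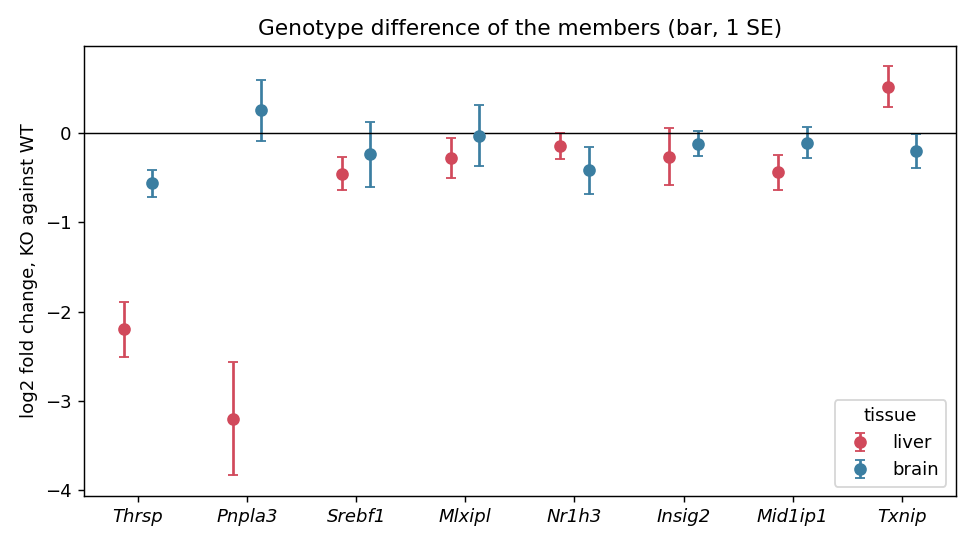
Log2 fold change of KO against WT for each member in liver and in brain (points) with 1 SE (bars). Thrsp (-2.20) and Pnpla3 (-3.20) lie far under 0 in liver, whereas in brain Thrsp is at -0.56 and the other 7 members lie between -0.42 and 0.26.

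In brain, a contrast that was not used to choose the genes, the members could be tested, and 0 of 8 were called at an adjusted p under 0.1, where 0.0640% of 17188 genes were. DESeq2 called 0 of 8 too, and 1.52% of the 17567 genes it tested. Thrsp stood at 29.7, 35.3 and 27.6 CPM in WT brains B, D and E and at 23.25, 19.64 and 19.97 CPM in KO brains A, C and F. Every KO library lay under every WT library. It was the 1 member of 8 to do so, as did 7.94% of all genes tested in brain, and the 1 member at an unadjusted edgeR p under 0.05, as were 5.01% of genes in this direction. The log2 fold change was -0.56 (SE 0.15, unadjusted p = 0.00461, adjusted p = 0.34 by edgeR), and over the alternatives the adjusted p ran from 0.053 to 0.943. The lower of these came without the filter on low counts and passed the threshold.

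The genotype difference of Thrsp was larger in liver than in brain by -1.60 on the log2 scale (SE 0.35), and that of Pnpla3 by -3.42 (SE 0.74), both given without a test since they contain the liver contrast. The difference for Pnpla3 was -2.67 without mouse E, and that for Thrsp ran from -2.03 without mouse C to -1.27 without mouse A. Pnpla3 stood at 2.32, 4.21 and 1.86 CPM in WT brains and at 3.25, 3.60 and 3.23 CPM in KO brains, so its KO brains fell inside the WT range (log2 fold change 0.26, SE 0.34, adjusted p = 0.771 by edgeR). Srebf1 stood at 24.6, 41.7 and 28.5 CPM in WT brains and at 18.5, 44.0 and 17.9 CPM in KO brains. Its highest libraries were D among WT and C among KO, and the estimate was -0.24 (SE 0.36). Nr1h3 stood at 3.82 to 5.82 CPM in WT and 3.16 to 4.06 CPM in KO brains, and Mlxipl at 1.56 to 1.87 and 1.30 to 1.98 CPM. Insig2, Mid1ip1 and Txnip had brain estimates of -0.12, -0.11 and -0.20 with SE of 0.14, 0.17 and 0.19, and the groups of all 3 overlapped.

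Markers of brain regions moved with genotype beside these values. The 6 olfactory bulb markers summed to 5.80 to 11.6 CPM in WT brain and 33.6 to 52.9 CPM in KO brain, the 6 cerebellum markers to 641 to 981 against 141 to 415 CPM, and the 4 choroid plexus markers to 16.7 to 32.5 against 9.35 to 16.2 CPM. The 6 hepatocyte markers summed to 211 to 377 CPM in WT brain and 111 to 174 CPM in KO brain, with highest counts of a single marker of 6866 and 2235. The part of any of these markers in the lower brain level of Thrsp was not tested.

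The members differed widely in tissue preference over the 6 WT libraries. This comparison shares its 3 WT liver libraries with the liver contrast that chose the genes, so the choice favours high WT liver levels of Thrsp and Pnpla3. All 8 were called higher in WT liver than in WT brain, where 35.4% of 17694 genes were called higher and 42.9% lower in liver. Mlxipl had the widest gap, at 66.0 ± 22.7 RPKM (reads scaled to gene length and library size) in liver and 0.236 ± 0.0246 in brain, a log2 fold change of 8.13 (SE 0.32, adjusted p = 5.49e-09 by edgeR). Next came Nr1h3 at 4.78 (SE 0.20), Thrsp at 4.39 (SE 0.21), Srebf1 at 3.99 (SE 0.27), Insig2 at 3.07 (SE 0.27) and Txnip at 2.80 (SE 0.18), all as log2 fold changes of liver over brain. The factors and Thrsp were thus higher in liver by 15.9-fold or more, and the remaining members by less. Pnpla3 had a log2 fold change of 1.52 (SE 0.45, adjusted p = 0.01 by edgeR), which became 0.77 (adjusted p = 0.153) without mouse E, whose liver held the most Pnpla3, and the adjusted p ran from 0.000522 to 0.153 over the alternatives. Mid1ip1 had a log2 fold change of 0.43 (SE 0.19, adjusted p = 0.0599 by edgeR), and this call was lost with another scaling of the libraries (0.35, adjusted p = 0.127) and without mouse B (0.10, adjusted p = 0.674), within a range of 0.0265 to 0.674 over the alternatives.

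**Figure D3:**
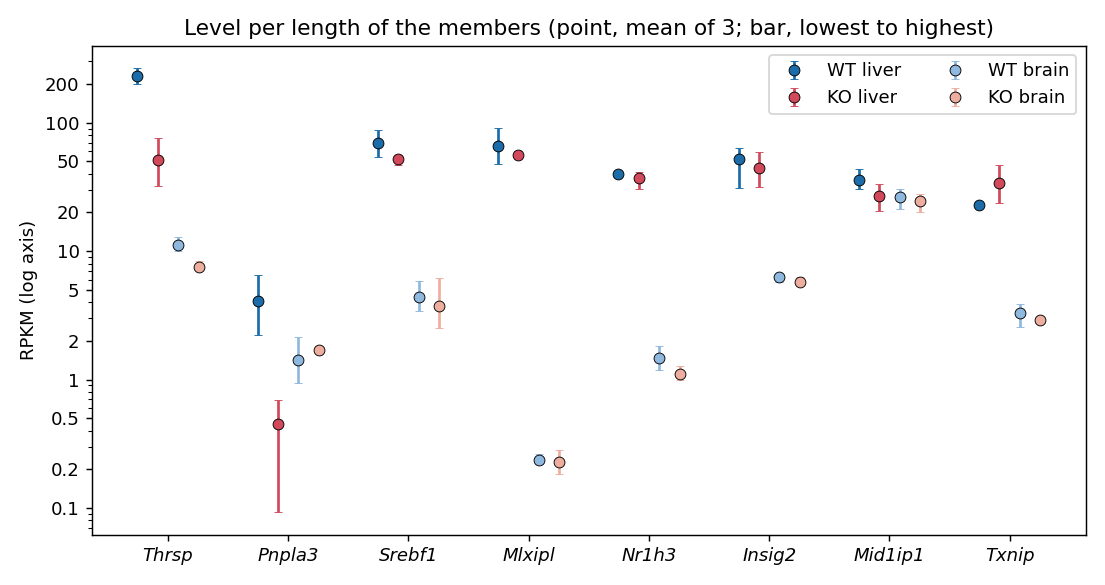
RPKM (log axis), scaled over all 12 libraries, of the 8 members in the 4 groups, as the mean of 3 libraries with a bar from the lowest to the highest. Mlxipl shows the widest gap between tissues (66.0 against 0.236 RPKM in WT) and Mid1ip1 the narrowest, and KO liver is the group with the least Pnpla3.

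Per length, the order of the members in WT liver was Thrsp (232 ± 33.7 RPKM), Srebf1 (70.1), Mlxipl (66.0), Insig2 (52.2), Nr1h3 (40.1), Mid1ip1 (35.7), Txnip (22.9) and Pnpla3 (4.08 ± 2.23). Thrsp stood clear of the next gene, Txnip stood clear of its neighbours on both sides, and the 5 members from Srebf1 to Mid1ip1 overlapped each with its neighbour. In KO liver Thrsp took the place behind Mlxipl (55.7 RPKM) and Srebf1 (52.2 RPKM), at 51.7 ± 22.5 RPKM, and the libraries of each of the first 7 members overlapped with those of its neighbour among them. Pnpla3 closed the order at 0.451 ± 0.318 RPKM. In brain, Mid1ip1 led at 26.6 ± 4.77 RPKM in WT and 24.6 ± 3.99 in KO, followed by Thrsp at 11.1 ± 1.48 and 7.53 ± 0.698, and Mlxipl closed it in both genotypes. In KO mice every brain library held more Pnpla3 per length (1.64 to 1.83 RPKM) than every liver library (0.0923 to 0.698 RPKM), the reverse of WT mice (0.946 to 2.16 in brain, 2.24 to 6.56 in liver). These liver values are the ones by which Pnpla3 was chosen, so the reversal restates that contrast and carries no test.

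Pathway lists around the members, written with earlier results of these libraries known, are described by counts and medians. For that reason the liver p-values and calls of list genes are given as description and not as independent support. Among 13 enzymes and carriers listed as SREBP-1c targets, all 13 had a lower KO estimate in liver, and their median log2 fold change was -0.70 beside -0.00 over all genes. The count was 12 of 13 under another scaling and 10 of 13 without mouse A. By edgeR 0 of 13 were called, 8 were lower at an unadjusted p under 0.05 (4.57% of all genes), and DESeq2 called 6, all lower, where it called 1.13% of genes. The 6 were Elovl6, Fasn, Acly, Gpam, Acacb and Me1. Elovl6, the elongase of palmitate, stood at 183 ± 79.1 CPM in WT and 53.3 ± 14.1 CPM in KO liver (log2 fold change -1.78, SE 0.36, adjusted p = 0.396 by edgeR and 9.62e-06 by DESeq2). Fasn, fatty acid synthase, stood at 1876 ± 633 and 776 ± 246 CPM (-1.27, SE 0.30, adjusted p = 0.428 by edgeR and 0.00165 by DESeq2). At the other end, Slc25a1, the mitochondrial citrate carrier, was at -0.00 (SE 0.18) and the desaturase gene Fads1 at -0.08 (SE 0.14).

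The lists of the other 2 factors were less uniform. Of 11 ChREBP targets 7 were lower (median -0.22). The count was 5 with a median of 0.0048 without mouse B, and 11 with a median of -0.37 among mice with Y-linked transcripts. DESeq2, with 1.13% of all genes called, called Pklr alone of this list, the liver pyruvate kinase (280 ± 61.2 CPM in WT, 159 ± 36.7 CPM in KO, log2 fold change -0.82, SE 0.21, adjusted p = 0.428 by edgeR and 0.0348 by DESeq2), and the fructose enzymes Khk and Tkfc had estimates of -0.54 and -0.52 without a call. The highest estimates were Rgs16 (0.54, SE 1.60) and Arrdc4 (0.24, SE 0.88). Of 11 LXR targets 3 were lower (median 0.16). Pltp was at -0.78 (SE 0.32), and the highest estimates were Lpl at 1.07 (SE 0.44) and Cyp7a1, the rate-limiting enzyme of bile acid synthesis, at 1.05 (SE 1.11), and none of these 3 genes was called.

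Genes that set the activity of the factors had small estimates. In the list of SREBP cleavage and turnover (11 genes, median 0.15) the estimates ran from -0.48 (SE 0.24) for Insig1 and -0.25 for Rnf139 to 0.23 for Srebf2 and 0.30 (SE 0.14) for Scap, the escort of SREBP, and neither tool made a call. Partners, paralogues and coactivators (13 genes, median 0.15) ran from -0.33 (SE 0.19) for Mlx, the partner of ChREBP, and -0.10 for Ppargc1b to 0.24 for Nfya and 0.27 for Rxrb, again without a call. In the list for insulin and feeding (11 genes, median 0.11), Igfbp1, which insulin represses, was the 1 gene called by DESeq2. It stood at 65.2 ± 11.5 CPM in WT and 197 ± 116 CPM in KO liver (1.59, SE 0.46, adjusted p = 0.497 by edgeR and 0.00145 by DESeq2). Irs2, likewise repressed by insulin, was at 1.41 (SE 0.45). Both had every KO library above every WT library, as did 6.50% of all genes, and an unadjusted p under 0.05, as did 2.76% of all genes in this direction. Lpin1 was at -0.35 (SE 0.34).

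The thyroid hormone list (7 genes, median 0.17) held no call, from Hr at -0.58 (SE 0.44) and Thrb at -0.23 to Dio1 at 0.39 and Thra at 0.42 (SE 0.19). The clock list had 16 of its 17 genes tested, 13 of them lower, with a median of -0.55. DESeq2 called 3 of the 16 beside 1.13% of all genes, all 3 lower: Bhlhe40 (127 ± 32.2 CPM in WT, 53.8 ± 9.37 CPM in KO), Per2 (15.2 ± 2.98 and 6.67 ± 1.97 CPM) and Dbp (8.52 ± 6.10 and 1.68 ± 0.680 CPM). Dbp (-2.34, SE 0.81) and Per3 (-1.64, SE 0.81) had the lowest estimates, and Arntl (0.51, SE 0.21) and Cry1 (0.48, SE 0.44) the highest. The collection time of the mice is not labelled, so time of day and genotype cannot be told apart for this list.

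Pnpla5, a close relative of Pnpla3 in the patatin-like lipase list, lies beside it on chromosome 15 (ENSMUSG00000018868.4, chr15:84112356-84123175), 44.7 kb away. It held 6, 21 and 10 counts in WT livers B, D and E and 0 counts in each KO liver, as in all 6 brains. The WT mean of 0.740 CPM was 4.40-fold above a floor of 3 counts per KO library (0.168 CPM). This bound leaves out the spread of the WT livers, of which B stood at only 0.309 CPM. Pnpla5 was under the low-count filter of edgeR and was called by DESeq2 (adjusted p = 0.0143), as were 1.13% of the genes DESeq2 tested. The 5 genes of the list tested by edgeR had a median of -0.06, from Pnpla8 (-0.37, SE 0.15) and Pnpla6 (-0.13) to Abhd5 (0.05) and Pnpla2 (0.25, SE 0.11), the main triglyceride lipase, and Pnpla1 was not tested. Among 6 arrestin relatives of Txnip and redox partners (median 0.14), Arrdc3 was highest at 0.58 (SE 0.25), then Arrdc1 at 0.24, and Txn1 lowest at -0.25 (SE 0.15), then Txnrd1 at -0.08.

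**Figure D4:**
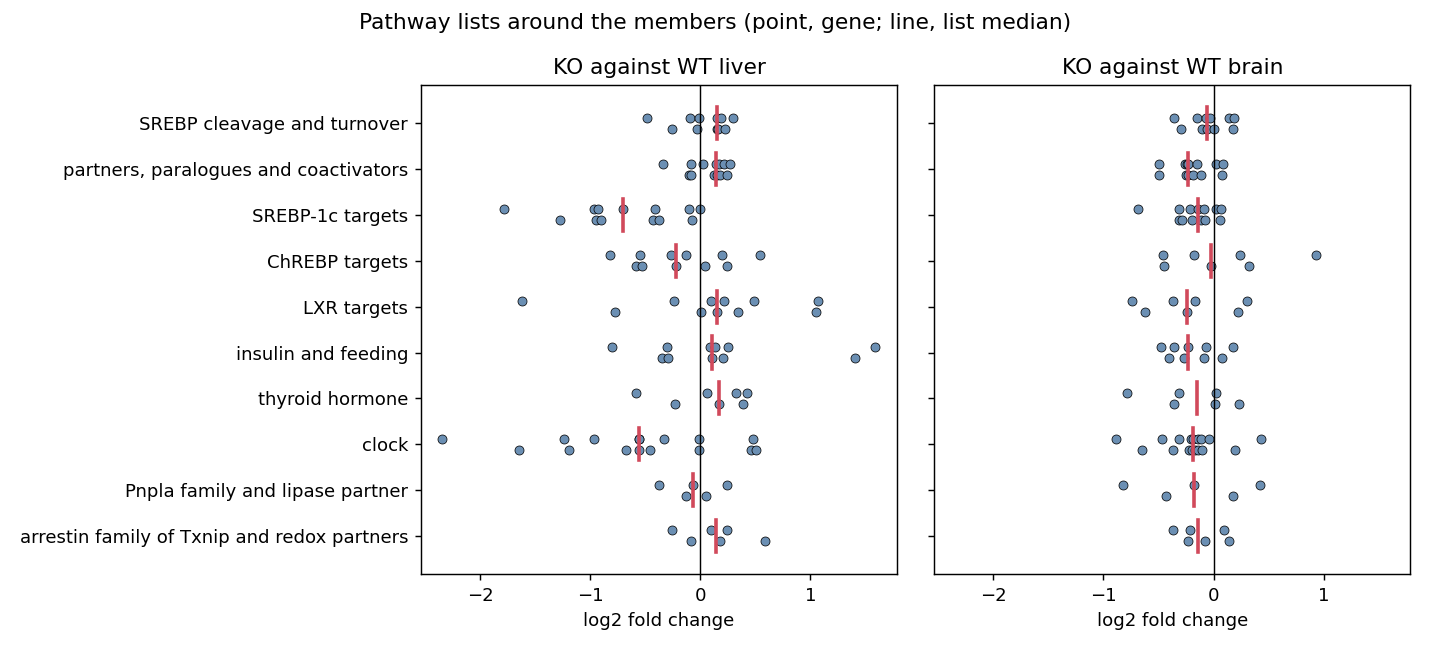
Log2 fold change of KO against WT for each tested gene (points) of the 10 pathway lists in liver and brain, with a line at each list's median. In liver the 13 SREBP-1c targets lie at or under 0 (median -0.70), while in brain their median is -0.14.

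In brain, edgeR and DESeq2 called 0 genes of the 10 lists, and the list medians lay between -0.24 and -0.02. The SREBP-1c targets had a brain median of -0.14, with 10 of 13 lower and 0 at an unadjusted p under 0.05, from Acacb at -0.69 and Fasn at -0.32 to Slc25a1 at 0.07 and Elovl6 at 0.06. The clock gene Npas2 was higher in every KO brain, at 45.5 ± 2.27 CPM against 33.8 ± 6.43 CPM in WT, where 8.41% of all genes were higher without overlap and 5.96% higher at an unadjusted p under 0.05. Its log2 fold change was 0.43 (SE 0.16, adjusted p = 0.404 by edgeR and by DESeq2). Pnpla2 was lower in every KO brain (-0.83, SE 0.26) without a call. Among clock genes the named brain estimates went from -0.65 for Nr1d1 to 0.20 for Clock and 0.43 for Npas2, among LXR targets from -0.74 for Pltp and -0.62 for Mylip to 0.22 for Smpdl3a and 0.30 for Lpl. SREBP cleavage genes ran from Scap (-0.36) and Mbtps1 (-0.30) to Erlin1 (0.17) and Rnf139 (0.18), and partners of the factors from Nfyc and Ppargc1b (both -0.49) to Nfyb (0.07) and Rxra (0.09). In the insulin list low and high estimates were Lpin1 (-0.48), Irs2 (-0.41) and Ppargc1a (0.18), and in the thyroid hormone list Hr (-0.79), Slc16a10 (-0.36) and Thrb (0.23). Gpd1 (-0.46), Rgs16 (-0.45) and Klf10 (0.32) stood near the ends of the ChREBP targets. Pnpla7 (-0.43), Abhd5 (0.18) and Pnpla8 (0.42) did so in the lipase list, and Arrdc2 (-0.37), Txnrd1 (-0.23), Arrdc1 (0.10) and Txn1 (0.14) in the arrestin list.

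Genes whose liver pattern was most like that of a member were found by the root mean square (RMS) difference of centred log2 CPM over the 6 liver libraries, among 9336 genes of at least 5 CPM. The nearest to Thrsp were Chrna4, a subunit of the nicotinic acetylcholine receptor (RMS difference 0.313), Elovl6 (0.483), 1810022K09Rik (0.611) and Col15a1 (0.614), where Thrsp itself varied by 1.20 around its mean. Chrna4 stood at 27.9, 17.2 and 28.2 CPM in WT livers B, D and E and at 4.22, 11.5 and 3.96 CPM in KO livers A, C and F. Like Thrsp, it was lowest among WT livers in mouse D and highest among KO livers in mouse C. Pnpla3, which varied by 1.73, had Samd9l (0.736), Gm8995 (0.848), Zfp518a (0.848) and Gm1966 (1.003) as its nearest genes, and these were lowest in mouse C as Pnpla3 was. Srebf1, which varied by only 0.300, was nearest to Nop58 (0.0745), Fam133b (0.0799), Gnl2 (0.0863) and Polr3g (0.0916). Among the members, Mid1ip1 was nearest to Srebf1 (0.147), and Thrsp and Pnpla3 lay 1.15 apart, no nearer than Thrsp to Srebf1 (1.003). The same 12 genes were found with a prior count of 0.5 in place of 2.

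**Figure D5:**
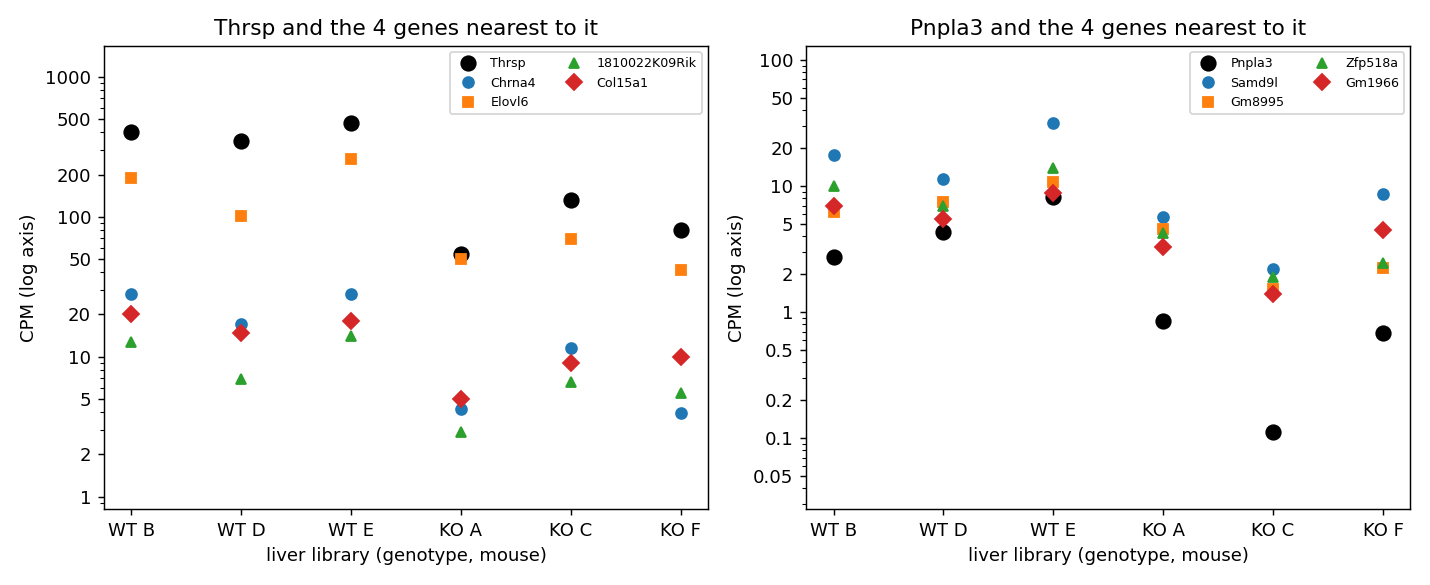
CPM (log axis) of Thrsp and of Pnpla3 (black) and of the 4 genes nearest to each in the 6 liver libraries. Thrsp, Chrna4 and Elovl6 are highest in mouse E among WT and in mouse C among KO livers, whereas Pnpla3 and its nearest genes are lowest in mouse C.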

How the data were processed

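The authors prepared stranded total RNA libraries, read them as single-end reads, trimmed them with Trimmomatic, aligned them with STAR 2.7.3a to mm10 and assigned them to exons with featureCounts, with strand taken into account. Raw counts per gene were deposited. Samples were grouped by the genotype, tissue and mouse letter in the labels.

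The members and gene lists were chosen with earlier results of these data known. Counts were fitted with edgeR 4.0.16 in R 4.3.3 (TMM, filterByExpr, robust quasi-likelihood F test, Benjamini-Hochberg adjustment over all genes, calls at an adjusted p under 0.1), separately for the 6 libraries of each tissue, for the 6 WT libraries between tissues and for all 12 libraries for the difference between tissues. SE came from the F statistic. DESeq2 1.42.0 was an alternative, as in the study. The scripts were tested on simulated data. CPM were scaled by TMM within each tissue and RPKM over all 12 libraries. Likeness used log2 CPM with a prior count of 2 and the 4 nearest genes with a mean of at least 5 CPM in liver. The rule for named genes took the 8 members, these nearest genes and, from each list, called genes and the 2 lowest and 2 highest estimates; Khk, Tkfc and the DESeq2 calls in the lists were named after their values were seen, and a few list genes are not reported here.

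Replicates are separate mice, and no 2 libraries of a group agreed within sampling noise (chi-square per gene 19.9 to 109). Liver and brain of a mouse share its letter, so mouse was used as a block in an alternative fit; deviations of the 2 tissues of a mouse from their group means correlated at -0.0389 to 0.140 over 12574 genes. The floor of 3 counts covers counting error only, whereas SD, SE and ranges include the spread between mice.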

Additional observations from a re-analysis of the deposited data

Results flagged for a closer look

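Of the 97 members and list genes reported that were tested in both tissues, 3 had KO libraries apart from the WT libraries in opposite directions in liver and brain, as had 1.79% of all 12574 genes tested in both. None of the 3 had a tissue difference that passed the edgeR test. Pnpla2 differed in its genotype effect by 1.11 on the log2 scale (liver minus brain, SE 0.30, adjusted p = 0.218 by edgeR, 0.287 with mouse as a block), or 1.07 as the difference of the separate fits. Nfyc differed by 0.65 (SE 0.22, adjusted p = 0.342 by edgeR), or 0.62 between the separate fits, and Mbtps1 by 0.48 (SE 0.17, adjusted p = 0.368 by edgeR), or 0.45.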

How the results depend on the processing

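The members' liver estimates moved by less than the spread between replicates in 103 of 104 alternative values, the exception being Mlxipl, at 0.09 among mice with Y-linked transcripts. This measure passes changes of sign and of size in small estimates. Within it, Mlxipl turned to 0.04 without mouse E and Nr1h3 fell to -0.02 without mouse A. Thrsp stayed between -2.59 and -1.94 and Pnpla3 between -3.63 and -2.67. The number of genes called in liver, 0 by edgeR, was 443 without the filter on low counts, 171 by DESeq2, 3 with all 12 libraries in 1 fit, 82 with Y-linked transcripts as a covariate and 29 among mice with Y-linked transcripts, and 0 to 87 with 1 mouse left out (87 without mouse D, 2 without mouse C). At an unadjusted p under 0.05 edgeR had 643 genes lower and 389 higher. In brain, 11 calls became 1000 without the filter, 267 by DESeq2, 0 among mice with Y-linked transcripts and 2 to 23 with 1 mouse left out. Of the brain estimates, Mlxipl ran from -0.20 to 0.10 with 1 mouse left out (0.07 without mouse B), Srebf1 from -0.797 to 0.0098 (positive without mouse D) and Mid1ip1 from -0.240 to 0.0159 (positive without mouse F), Mid1ip1 was at 0.0676 among mice with Y-linked transcripts, and Thrsp passed the threshold without the filter. The difference between tissues, 0 calls, gave 1 with RLE scaling, 183 without the filter, 367 by DESeq2, 68 with mouse as a replicate block and 0 to 86 with 1 mouse left out (86 without mouse D). The block gave 13588 calls between WT tissues in place of 13861 and kept all 8 members called. The calls between WT tissues were lost in 5 of 64 alternative values, 4 of Mid1ip1 and 1 of Pnpla3. In an alternative added after the data were seen, 10 to 13 of 13 SREBP-1c targets were lower in liver, and the list medians ran from -0.41 to 0.0048 for ChREBP targets, 0.03 to 0.21 for LXR targets and -0.79 to -0.32 for clock genes. The cause of these changes was not tested. With 3 mice a group, and Pnpla3 at 2 to 143 counts a liver library, counting limits the size of its difference.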
